A study of Mus musculus with 6 samples.

Results

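A set of 10 genes that build the node of Ranvier and the paranode was followed in RNA-seq counts of mouse dorsal root ganglion (DRG) and neurofibroma tissue, out of 24062 genes in the files. The 10 members were chosen by name, and each was found once in the count tables, *Epb41l3* under its older symbol *Epb4.1l3*. By where the protein is made, 6 are axonal partners (*Cntn1*, *Cntnap1*, *Cntnap2*, *Ank3*, *Sptbn4* and *Epb41l3*), 3 are made by both axon and glia (*Nfasc*, *Nrcam* and *Cntn2*) and 1 is a glial partner (*Gldn*). The groups follow what is known of the proteins at the node, and which cells gave the counts of each member was not tested. The 10 genes all passed the filter on low counts, which kept 15652 genes.

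The node is the short gap between neighbouring myelin segments, where sodium channels are packed into the axon membrane and the action potential is renewed. In peripheral nerve the Schwann cell (SC) sends microvilli over the node, and gliomedin, the product of *Gldn*, binds neurofascin and NrCAM there and gathers the channels, which ankyrin G and beta-IV spectrin hold from inside the axon. On either side, at the paranode, an axonal pair of contactin and Caspr faces glial neurofascin and seals the myelin loops to the axon, and beyond it, at the juxtaparanode, Caspr2 and TAG-1 hold potassium channels.

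The 3 control libraries came from *Nf1*fl/fl;*DhhCre* mice, in which both floxed copies of *Nf1* are deleted by Cre under the *Dhh* promoter. The other 3 libraries carry the label Rx1flfl;Rx3fl/fl;DhhCre and are described in the methods of the study as also homozygous for floxed *Runx1*, *Runx3* and *Nf1*. They are called DKO-labelled here. *DhhCre* is active in SCs and their precursors and not in neurons. The strain background is C57BL/6-I129 in both groups. The sample labels name the tissue DRG in the controls and neurofibroma tumor in the other group, whereas the extraction text gives DRG/tumors for both. The results of the study instead name tumors for the control genotype and DRG/tumors for the other. With these labels, genotype and tissue cannot be told apart. The age of the mice is not given in the sources used here. The sources give 3 samples per genotype without stating how they were taken, and the p-values measure the spread between these samples.

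The libraries held 12439296 to 16682194 counts. *Runx1* was at 131, 141 and 172 CPM (counts scaled to library size, with TMM factors) in the controls. In the DKO-labelled libraries it was at 84.0, 78.9 and 185 CPM, so that replicate 3 was above every control. Counts per gene of floxed genes cannot check the label of a library here, since the tissue is bulk and *DhhCre* is not active in every cell. *Runx3* was at 19.9, 15.1 and 29.9 CPM against 13.6, 10.3 and 12.2 CPM, and neither *Runx1* nor *Runx3* passed the test. *Nf1*, which the label of the DKO-labelled libraries omits, was at 334, 273 and 298 CPM in the controls. In the DKO-labelled libraries it was at 266, 263 and 342 CPM (log2 fold change -0.06, limma-voom adjusted p = 0.809). A list of 15 sensory neuron markers, such as the peripherin gene *Prph* and the neurofilament gene *Nefl*, summed to 1311 to 2584 CPM in the controls and 6313 to 14252 CPM in the DKO-labelled libraries, and 15 of 15 were called higher. Skeletal muscle markers summed to 3040 CPM in control replicate 2 and 13502 CPM in DKO-labelled replicate 2, and to at most 81.9 CPM in the other libraries.

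Of the 9 members made by axons, alone or together with glia, 8 were higher in the DKO-labelled libraries by adjusted p alone (all but *Ank3*). By this looser criterion, 11.1% of all tested genes were higher. The glial member *Gldn* was lower by it, as were 8.22% of all tested genes. A gene was called when it had a Benjamini-Hochberg adjusted p below 0.05 over all genes tested and a change of more than 2-fold. Among the 10 members, 7 were called higher, where 8.03% of all tested genes were, and 1 was called lower, where 5.36% of all tested genes were. Without the fold threshold, 8 members passed as higher and 1 as lower, against 11.1% and 8.22% of all tested genes. In 9 members the 3 DKO-labelled libraries lay above the 3 controls, and in 1 they lay below. Among all tested genes these shares were 21.8% and 20.5%. The median log2 fold change was 1.57 over the members and 0.02 over all tested genes. With all libraries, 8 members and 13.4% of all tested genes were called in either direction. Without control replicate 1, 2 members and 2.26% of all genes were called. Without control replicate 3 there were 4 members and 6.47%, and without DKO-labelled replicate 2 there were 4 and 6.36%. Without DKO-labelled replicate 3, whose *Runx1* level was not reduced, there were 5 and 9.98%. Without control replicate 2 there were 8 and 14.3%, and without DKO-labelled replicate 1 there were 7 and 11.7%. Leaving out both libraries with high muscle transcripts, a choice made after seeing the data, gave 7 members and 11.1%. In bulk tissue, fewer cells of a type and less RNA per cell cannot be told apart.

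**Figure D1:**
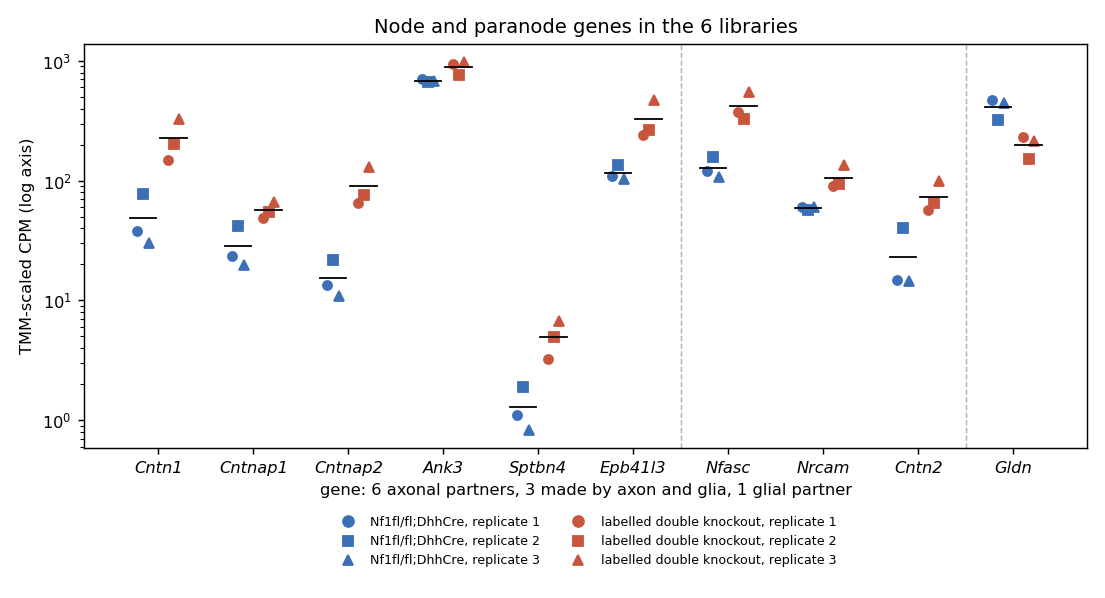
TMM-scaled CPM of each member on a log axis, with controls in blue, DKO-labelled libraries in red, one marker shape per replicate and a black bar at each group mean. The 3 red points lie above the 3 blue points in 9 genes and below them in *Gldn*, at 153 to 231 CPM against 324 to 471 CPM.

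*Gldn* encodes gliomedin, the SC ligand of the node (chr9:54286486-54341786, plus strand, positions on GRCm38). It was at 471, 324 and 448 CPM in the controls and at 231, 153 and 214 CPM in the DKO-labelled libraries. The 2 groups did not overlap, and within each group replicate 2 was the lowest. The mean was 414 ± 79.3 CPM in the controls and 199 ± 41.1 CPM in the others (SD, n = 3 each), a 2.08-fold fall (log2 fold change -1.06, SE 0.21, limma-voom adjusted p = 0.0182). The 95% interval of the change ran from -1.54 to -0.57. The call was lost without control replicate 1 (-0.93, limma-voom adjusted p = 0.0663) and without control replicate 3 (-0.95, limma-voom adjusted p = 0.0570). Without DKO-labelled replicate 2 it was -0.88, under the fold threshold, and without DKO-labelled replicate 3 it was -1.12 and called.

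Among 9 general SC lineage markers such as *Sox10* and *Erbb3*, 2 were called higher and 0 lower. Their median change was -0.12, and they summed to 1904 to 2209 CPM in the controls and 1917 to 2517 CPM in the DKO-labelled libraries. As a log2 ratio to that sum, *Gldn* was at -2.33 ± 0.20 in the controls and -3.53 ± 0.13 in the others (SD, n = 3 each), without overlap, and 25.5% of all tested genes were likewise lower in each DKO-labelled library on that scale. Markers of myelinating SCs went the other way. Of 11 such genes, 9 were called higher and 0 lower, with a median of 1.49 and sums of 5379 to 6305 CPM against 11966 to 15558 CPM. Other lists were mixed, held calls in the direction of *Gldn* or held no call. Of 5 endothelial markers (median 0.02) and of 8 skeletal muscle markers (median 1.62), 0 were called in either direction. Of 5 satellite glia markers, 1 was called higher (*Fabp7*, 1.87) and 1 lower (*Kcnj10*, -1.25). Of 6 markers of oligodendrocytes and astrocytes of the central nervous system, 3 were tested, with a median of 1.07, and 1 was called lower (*Gfap*, -1.94), while *Aqp4* (2.42) and *Cldn11* (1.07) were not called. Macrophage markers (6 of 8 called lower) summed to 566 to 1385 CPM in the controls and 115 to 260 CPM in the DKO-labelled libraries, and fibroblast and perineurial markers (4 of 6 called lower) to 5018 to 5359 CPM and 1559 to 2976 CPM. No marker of these lists was at 0 in every library. The part of these cells in the *Gldn* value was not tested.

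Promoter windows from RefSeq on GRCm38.p6 were read for the members, since the floxed genes encode RUNX factors. Windows of 300 bases (250 before and 50 after a start) were on hand for 8 of the 10 members, 17 windows in all. The letters TGTGGT and TGCGGT, both forms of the RUNX core, were searched on both strands. At least 1 was found in 5 of the 17 windows (29.4%) and in 22.4% of 32851 windows of all genes, and the windows with a match belonged to 3 members, *Nfasc*, *Cntnap2* and *Sptbn4*. The *Gldn* window held neither. The 250 bases before the start are shown, on the strand of the gene and with matches in capitals, for the glial member that fell, for the member with the largest increase and for the member with 2 matches in 1 window. They lie at chr9:54286236-54286485 (plus strand), chr6:45059811-45060060 (plus strand) and chr1:132707327-132707576 (minus strand), and a match describes letters and not a bound site.
*Gldn*: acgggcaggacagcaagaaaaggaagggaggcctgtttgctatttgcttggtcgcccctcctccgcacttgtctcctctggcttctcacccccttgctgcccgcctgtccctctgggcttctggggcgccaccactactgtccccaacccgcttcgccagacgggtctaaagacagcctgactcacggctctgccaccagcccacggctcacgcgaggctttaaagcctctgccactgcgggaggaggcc
*Cntnap2*: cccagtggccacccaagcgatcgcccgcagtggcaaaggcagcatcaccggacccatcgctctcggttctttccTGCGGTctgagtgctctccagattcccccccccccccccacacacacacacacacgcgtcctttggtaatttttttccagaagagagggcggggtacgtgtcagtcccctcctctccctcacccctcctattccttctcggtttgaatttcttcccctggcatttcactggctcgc
*Nfasc*: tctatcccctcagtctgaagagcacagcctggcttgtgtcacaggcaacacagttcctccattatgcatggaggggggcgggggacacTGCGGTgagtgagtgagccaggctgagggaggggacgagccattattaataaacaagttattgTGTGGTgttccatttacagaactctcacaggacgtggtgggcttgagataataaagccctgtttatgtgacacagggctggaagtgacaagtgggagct

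The capitals of the *Cntnap2* window begin 176 bases before the start. Those of the *Nfasc* window begin 162 and 99 bases before it, and a second *Nfasc* window, at another start, held TGTGGT 101 bases before that start.

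At the paranode, the axonal partners *Cntn1* and *Cntnap1* encode contactin-1 and Caspr, which reach the membrane as a pair. *Cntn1* (chr15:92051165-92341967, plus strand) was at 37.7, 77.9 and 29.9 CPM in the controls and at 148, 202 and 328 CPM in the DKO-labelled libraries. The lowest DKO-labelled library stood above the highest control, which was replicate 2. The group means were 48.5 ± 25.7 and 226 ± 92.4 CPM (SD, n = 3 each), a 4.66-fold rise (log2 fold change 2.26, SE 0.41, limma-voom adjusted p = 0.0149). The call held in 5 of the 6 fits with 1 library removed and was lost without control replicate 1 (2.17, limma-voom adjusted p = 0.0611).

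*Cntnap1* (chr11:101170523-101190724, plus strand) was at 23.3, 42.1 and 19.8 CPM in the controls and 48.9, 55.1 and 66.9 CPM in the DKO-labelled libraries. The gap between the groups was narrow, since control replicate 2 came close to DKO-labelled replicate 1. Its log2 fold change of 1.07 (SE 0.28, limma-voom adjusted p = 0.0397) was just past the fold threshold. Among the fits with 1 library left out, it was called only without control replicate 2, where it was 1.44. The other 5 such fits gave changes between 0.88 and 1.21, with limma-voom adjusted p-values between 0.0540 and 0.127. By edgeR's quasi-likelihood test its adjusted p was 0.0552, and by DESeq2 its change of 0.99 was under 2-fold. Within the annotation, 3.97% of the *Cntnap1* exons overlap the antisense gene *Plekhh3*, and whether the counting used strand is not stated. Whether *Cntn1* and *Cntnap1* differ in their changes, 2.26 and 1.07 on the log2 scale, was not tested.

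Further out, at the juxtaparanode, *Cntnap2* encodes Caspr2 and *Epb41l3* encodes protein 4.1B, the scaffold that links both Caspr proteins to the axonal cytoskeleton. *Cntnap2* (chr6:45059357-47304213, plus strand) was at 13.5, 21.8 and 10.9 CPM in the controls and at 65.0, 75.7 and 130 CPM in the DKO-labelled libraries. Every DKO-labelled library was well above every control. With means of 15.4 ± 5.70 and 90.3 ± 35.1 CPM (SD, n = 3 each) and a fold of 5.87, it had the largest log2 fold change of the members (2.55, SE 0.36, limma-voom adjusted p = 0.0100). Removing any 1 of the 6 libraries kept the call, with values from 2.24 to 2.89.

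*Epb41l3* (chr17:69075683-69289989, plus strand) was at 110, 134 and 103 CPM in the controls and at 243, 264 and 475 CPM in the DKO-labelled libraries. The groups were apart, and DKO-labelled replicate 3 stood well above the other two of its group. The change was 1.45 (SE 0.27, limma-voom adjusted p = 0.0158). Without DKO-labelled replicate 3 it was 1.14 and still called, and without control replicate 1 the call was lost (1.44, limma-voom adjusted p = 0.0589).

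At the node itself, *Ank3* encodes ankyrin G and *Sptbn4* encodes beta-IV spectrin, the scaffold and the membrane skeleton under the sodium channels. *Ank3* (chr10:69398773-70027438, plus strand) was at 709, 665 and 674 CPM in the controls and at 937, 763 and 973 CPM in the DKO-labelled libraries. The groups did not overlap, but the distance between them was small. *Ank3* had the smallest change of the 10 members (0.38, SE 0.12, 95% interval 0.09 to 0.67) and did not pass the threshold (limma-voom adjusted p = 0.0737). With 1 library removed it was called in 0 of 6 fits.

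*Sptbn4* (chr7:27356383-27447686, minus strand) was the member with the fewest counts, 16, 32 and 13 in the controls and 41, 60 and 101 in the DKO-labelled libraries. Scaled, these were 1.11, 1.91 and 0.834 CPM against 3.27, 4.93 and 6.67 CPM. All of the DKO-labelled values were higher than all of the control values. Its log2 fold change was 1.96 (SE 0.50, limma-voom adjusted p = 0.0354), with the widest interval of the members, from 0.79 to 3.13. Of its exons, 2.54% overlap the antisense gene *Gm44924* and 1.4% the gene *Gm20479* on the same strand. The call was kept without control replicate 2 and without DKO-labelled replicate 1. It was lost without control replicate 1 (1.92), control replicate 3 (1.73), DKO-labelled replicate 2 (1.95) or DKO-labelled replicate 3 (1.69), where limma-voom adjusted p-values lay between 0.0787 and 0.114.

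*Nfasc*, *Nrcam* and *Cntn2* encode cell adhesion molecules made on both sides. *Nfasc* yields a long axonal neurofascin at the node and a shorter glial form at the paranode, and the counts per gene add both together. *Nfasc* (chr1:132564690-132741797, minus strand) was at 120, 157 and 107 CPM in the controls and at 373, 329 and 552 CPM in the DKO-labelled libraries. The lowest DKO-labelled library stood far above the highest control. The means were 128 ± 26.3 and 418 ± 118 CPM (SD, n = 3 each), a 3.27-fold rise (log2 fold change 1.69, SE 0.23, limma-voom adjusted p = 0.00948). *Nfasc* kept its call whichever of the 6 libraries was removed, from 1.47 to 1.90.

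*Cntn2*, which encodes the adhesion molecule TAG-1 of the juxtaparanode, lies 21.4 kb from *Nfasc* on the same strand (chr1:132509427-132543256), with 0 annotated genes between them. It was at 14.8, 39.9 and 14.5 CPM in the controls and at 56.6, 64.9 and 99.3 CPM in the DKO-labelled libraries. Control replicate 2 stood apart from the other controls and still below each DKO-labelled library. The change was 1.79 (SE 0.41, limma-voom adjusted p = 0.0258). Without control replicate 2 it was 2.34 and called. The call was lost without control replicate 1 (1.60), control replicate 3 (1.58), DKO-labelled replicate 2 (1.87) or DKO-labelled replicate 3 (1.55), with limma-voom adjusted p-values between 0.0602 and 0.0905.

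*Nrcam*, which encodes an adhesion molecule gathered at the node by gliomedin, spans chr12:44328885-44601964 on the plus strand. It was at 60.3, 57.0 and 59.7 CPM in the controls and at 89.4, 94.1 and 134 CPM in the DKO-labelled libraries. The controls were nearly alike, and each DKO-labelled library was above them. It rose 1.79-fold in mean CPM (log2 fold change 0.83, SE 0.18, limma-voom adjusted p = 0.0231), short of the fold threshold. The change lay between 0.64, without DKO-labelled replicate 3, and 0.98 over the fits that left out 1 library. The adjusted p passed in 4 of these 6 fits, and not without control replicate 1 (limma-voom adjusted p = 0.0651) or control replicate 3 (limma-voom adjusted p = 0.0523).

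**Figure D2:**
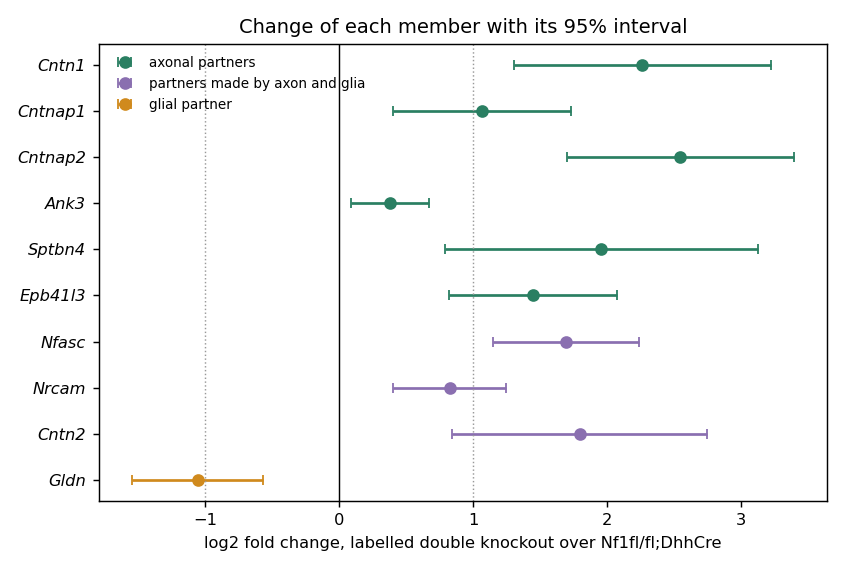
Log2 fold change of each member, DKO-labelled over control libraries, with its 95% interval from limma-voom and colored by where the protein is made. Dotted lines mark a 2-fold change. *Cntnap2* (2.55) and *Cntn1* (2.26) lie farthest to the right, *Ank3* (0.38) lies nearest to 0 and *Gldn* (-1.06) alone lies to the left.

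The glial and the axonal side were set against each other in 1 pair, *Gldn* and *Cntnap1*. The log2 ratio of *Gldn* to *Cntnap1* counts was 4.34, 2.94 and 4.5 in the controls and 2.24, 1.47 and 1.68 in the DKO-labelled libraries. Every control ratio was above every DKO-labelled ratio. Since *Gldn* was lower and *Cntnap1* higher in each DKO-labelled library, the ratios had to separate, and the difference is given as a description. The difference of the means was -2.13. It lay between -2.62, without control replicate 2, and -1.84, without control replicate 3.

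Within the groups, the members also differed from library to library. DKO-labelled replicate 3 was the highest of its group in 9 of the 9 members other than *Gldn*. Control replicate 2 was the highest of its group in 7 of these 9, the exceptions being *Ank3* and *Nrcam*, in which it was the lowest. The same libraries were highest in the summed sensory neuron markers, at 2584 CPM in control replicate 2 (1382 and 1311 CPM in the others) and 14252 CPM in DKO-labelled replicate 3 (6313 and 7359 CPM).

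On the scale of that neuronal sum, 85.7% of all tested genes were lower in each DKO-labelled library than in each control and 0.447% were higher, and the median log2 ratio of all genes differed by -2.37. The log2 ratios of *Cntn1*, *Cntnap2* and *Sptbn4* overlapped between the groups. For *Cntn1* the ratio was -5.23 ± 0.20 in the controls and -5.35 ± 0.14 in the DKO-labelled libraries, and for *Cntnap2* it was -6.83 ± 0.13 and -6.66 ± 0.10 (SD, n = 3 each). In the other 6 members that are not *Gldn*, each DKO-labelled ratio was below each control ratio, as in most genes. The difference of means was -2.0 for *Ank3*, -1.56 for *Nrcam*, -1.31 for *Cntnap1*, -0.94 for *Epb41l3*, -0.69 for *Nfasc* and -0.58 for *Cntn2*. Relative to the general SC sum, 8 of the 9 were higher in each DKO-labelled library than in each control, and *Cntnap1* overlapped, where 13.7% of all tested genes were higher. Relative to the myelinating SC sum, 6 of the 9 overlapped, *Cntnap2* was higher, and *Ank3* and *Nrcam* were lower, where 1.73% of all tested genes were higher and 73.0% lower. The part of neuronal or SC content in the changes of the members was not tested.

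**Figure D3:**
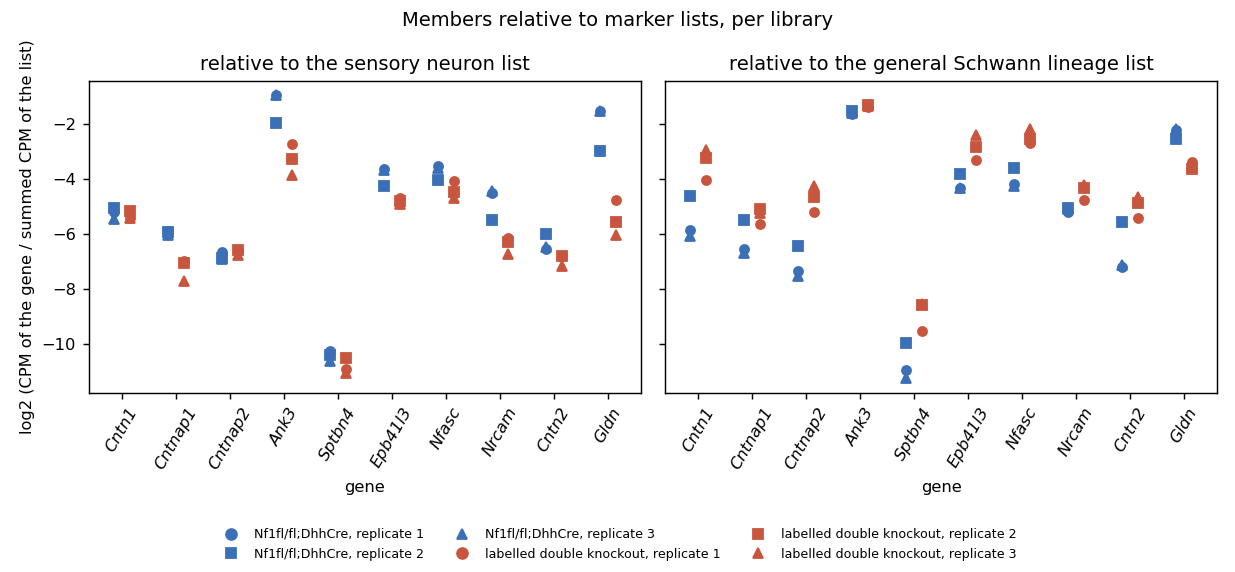
Log2 ratio of the CPM of each member to the summed CPM of 15 sensory neuron markers (left) and of 9 general SC markers (right), with controls in blue, DKO-labelled libraries in red and one marker shape per replicate. On the left *Cntn1*, *Cntnap2* and *Sptbn4* overlap between the groups. On the right *Gldn* (-2.33 and -3.53 in the mean) is the gene whose red points lie below its blue points.

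Per length, *Gldn* was the most abundant member in both groups. Levels were taken as CPM per kb of all annotated exons. In the controls *Gldn* was at 88.9 ± 17.0 CPM per kb (SD, n = 3), followed by *Ank3* at 19.6 ± 0.67 CPM per kb. *Epb41l3* (9.69 ± 1.4) and *Nfasc* (9.04 ± 1.86) came next in CPM per kb. *Cntn1* (5.14 ± 2.73), *Cntnap1* (4.83 ± 2.04) and *Nrcam* (4.42 ± 0.13) followed. Members with close means were measured in the same libraries, and whether they differ was not tested in either group. *Cntn2* and *Cntnap2* were at 2.48 ± 1.56 and 1.5 ± 0.56 CPM per kb, and *Sptbn4* was last at 0.134 ± 0.058. In the DKO-labelled libraries *Gldn* was at 42.8 ± 8.83 CPM per kb (SD, n = 3). *Nfasc* (29.5 ± 8.35), *Epb41l3* (27.5 ± 10.8), *Ank3* (25.6 ± 3.22) and *Cntn1* (24.0 ± 9.79) followed, with close means. *Cntnap1*, *Cntnap2*, *Nrcam* and *Cntn2* lay between 7.91 and 9.70 CPM per kb, and *Sptbn4* at 0.518 ± 0.178. *Ank3* has many exons that single transcripts leave out, 34838 bases in all, so that its level per length may be a low estimate. The exons of all transcripts were joined for the other members too, from 4658 bases in *Gldn* to 14145 in *Nfasc*. Their levels may therefore also be low estimates, and the order of the members may depend on this.

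The wider machinery of the node was read from 39 further genes. Of these, 14 were called higher and 4 lower, where 8.03% and 5.36% of all tested genes were, with a median log2 fold change of 0.45. Among 10 other axonal genes of the node, 5 were called higher and 0 lower, with a median of 2.15. The largest change was that of the sodium channel gene *Scn1a*, at 15, 15.3 and 9.24 CPM in the controls and 62.6, 87.5 and 126 CPM in the DKO-labelled libraries (2.79, SE 0.34, limma-voom adjusted p = 0.00805). No DKO-labelled library came near the controls. *Scn8a*, which encodes the main sodium channel of mature nodes, rose by 2.25 on the log2 scale (SE 0.32), and the potassium channel gene *Kcnq3* rose by 2.36 (SE 0.40). *Sptan1*, the spectrin partner of *Sptbn4*, rose by 0.68 (SE 0.16, limma-voom adjusted p = 0.0283), short of the fold threshold. Sensory neuron markers, 15 of 15 of which were called higher with a median of 2.40, rose in the same libraries. The part of neuronal content in the changes of these node genes was not tested. Among 10 genes whose proteins lie in the axon at the juxtaparanode and internode, 4 were called higher and 0 lower, with a median of 0.55. Which cells gave their counts was not tested. The channel gene *Kcna1* was at 2265, 1677 and 1604 CPM in the controls and at 3196, 1786 and 2376 CPM in the DKO-labelled libraries. *Kcnab2*, a subunit of the potassium channels there, changed most (1.88, SE 0.43), and *Kcna2*, another channel gene, changed by 0.71 (SE 0.12) and *Kcna1* by 0.39 (SE 0.23, limma-voom adjusted p = 0.279). Without control replicate 1, 5 of the 39 genes were called higher, where the count over all genes was 181 in place of 1257. Without control replicate 3 there were 9 of the 39 and 535 of all genes, and the other 4 fits with 1 library removed gave 11 to 14 of the 39.

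The 15 glial genes of the microvilli, the paranodal loops and the internode were divided. Here 5 were called higher and 0 lower, where 8.03% and 5.36% of all tested genes were, and 4 more passed as lower without reaching 2-fold, where 8.22% of all tested genes passed as lower at any fold. The 5 were *Cdh1* (1.75, SE 0.16), which encodes the E-cadherin that joins myelin loops to each other, *Ank2* (1.59, SE 0.30), *Gjb1* (1.59, SE 0.26), *Cldn19* (1.51, SE 0.15) and *Mag* (1.05, SE 0.26). *Ank2* is also made by neurons. *Gjb1* and *Cldn19* encode the gap and tight junction proteins of the myelin loops. Markers of myelinating SCs, 9 of 11 of which were called higher with a median of 1.49, rose in the same libraries. Their part in the values of the 5 genes called higher was not tested. The 4 that passed as lower were the syndecan gene *Sdc3* (-0.87, SE 0.14), *Msn* (-0.74, SE 0.17), *Ezr* (-0.64, SE 0.16) and *Lgi4* (-0.70, SE 0.16), with limma-voom adjusted p-values between 0.0124 and 0.0340. *Msn* and *Ezr* encode moesin and ezrin, which anchor microvilli, and the third gene of that family, *Rdx*, changed by 0.19 (SE 0.12, limma-voom adjusted p = 0.305). *Slc9a3r1*, which encodes a scaffold that binds these proteins, changed by 0.86 (SE 0.30, limma-voom adjusted p = 0.0859). Macrophage markers, 6 of 8 of which were called lower, and fibroblast and perineurial markers, 4 of 6, fell in the same libraries, and their part in the values of *Sdc3*, *Msn* and *Ezr* was not tested. *Lgi4* encodes a ligand that SCs secrete, and its neighbour in function *Adam22*, the axonal receptor, rose by 1.46 (SE 0.31).

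In the matrix that fills the nodal gap, 4 of 4 genes were called lower, where 5.36% of all tested genes were, with a median of -1.84. The collagen gene *Col28a1*, whose protein surrounds the node, was at 507, 425 and 444 CPM in the controls and 183, 85.7 and 115 CPM in the DKO-labelled libraries (-1.91, SE 0.25, limma-voom adjusted p = 0.00911). The groups were far apart. *Bgn* changed most (-2.16, SE 0.26), and the proteoglycan genes *Vcan* (-1.78, SE 0.27) and *Dcn* (-1.21, SE 0.18) were called lower as well. These genes are made by fibroblasts too, whose markers fell in the same libraries, and that part was not tested.

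**Figure D4:**
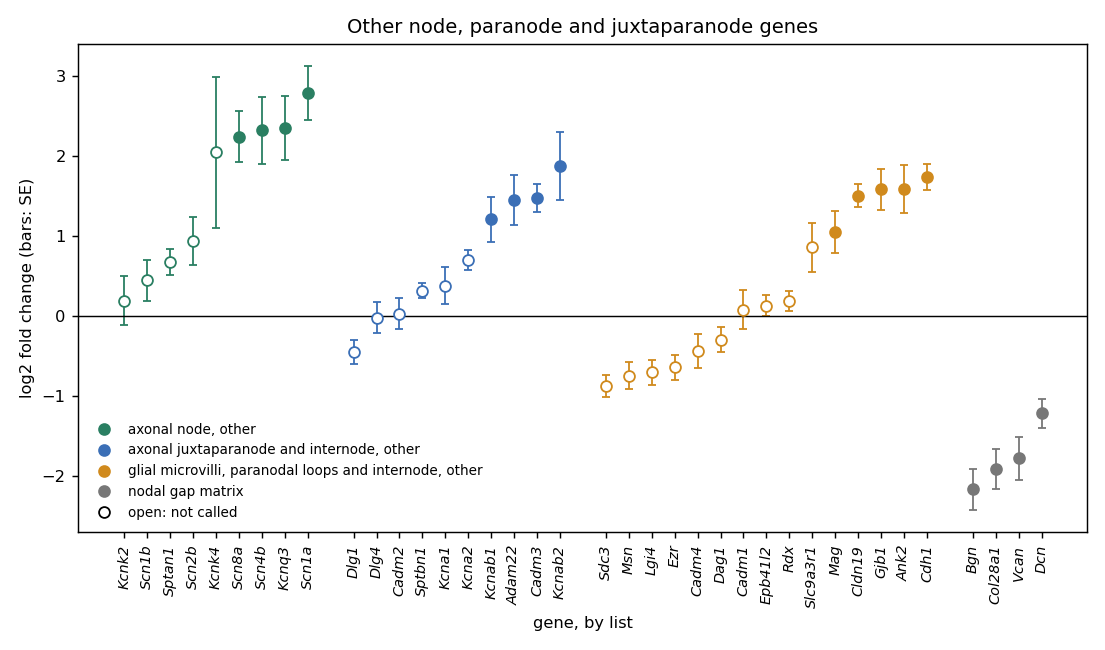
Log2 fold change of 38 of the 39 further genes, DKO-labelled over control libraries, with bars of 1 SE, ordered within 4 lists by color. Filled points were called. The axonal lists show 8 of their 9 called genes, all above 0 (the gene not plotted was called higher), and the matrix list holds 4, all below 0.

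The genes whose pattern over the 6 libraries was most like that of 2 members were sought among 10221 genes whose average log2 CPM reached 3, by the root mean square difference of centered log2 CPM. Closest to *Gldn* were *Pdlim4* (0.05), *Serpinb8* (0.06) and *Wipf1* (0.07). Closest to *Cntnap1* were *Pitpnm2* (0.08), *Wwox* (0.12) and *Eva1c* (0.12). The distances are a description of 6 libraries, which share their groups.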

How the data were processed

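RNA-seq was analysed for 6 libraries of mouse DRG/tumors, 3 per genotype. RNA was amplified with the Ovation RNA-Seq System v2 and made into libraries with Nextera XT. The authors aligned paired-end reads to mm10 with TopHat and deposited raw counts per gene from featureCounts. Annotation, strand setting and treatment of multi-mapped reads are not given in the sources used here. In 4 libraries the title and the column header give different animal numbers of the same genotype, so that it is unclear whether DKO-labelled replicate 2 or 3 came from another sequencing run, and each was left out in turn. Replicate numbers follow the order of deposition and pair nothing. No file was a copy of another (chi-square per degree of freedom of 21.7 to 133 within groups).

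Low genes were removed by filterByExpr (at least 10 counts, total at least 15). Counts were scaled by TMM (factors 0.950 to 1.04) and fitted with limma-voom on genotype (R 4.3.3, edgeR 4.0.16, limma 3.58.1), after the methods of the study. P-values were adjusted by Benjamini-Hochberg over all tested genes. CPM values carry no prior count, and the ratio of *Gldn* to *Cntnap1* used one of 0.5. A total of 3 counts equals 0.179 to 0.247 CPM. Positions and exon lengths came from GENCODE M21, promoters from RefSeq. Members and lists were chosen with earlier results of these data known. Beyond the members, the rule named the called gene with the largest change of each list in each direction, and the 3 genes most like *Gldn* and *Cntnap1*. Further genes of the node lists were chosen as examples with their values known. Some genes of the lists are counted but not reported by name here. Older symbols were matched through RefSeq synonyms. Scripts were tested on simulated data. Alternatives were DESeq2 1.42.0, its size factors, the quasi-likelihood test of edgeR, library size only, 2 other filters, sample quality weights and leaving out each library.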

Additional observations from a re-analysis of the deposited data

How the results depend on the processing

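Over 14 other settings for each of the 10 members, no fold change changed direction. The 8 called members lost their call in 22 of 112 cases. With all 6 libraries, the number of members called was 7 or 8 under each alternative test, scaling, filter or weighting, and *Cntnap1* was the member lost, by edgeR, DESeq2 (0.99) and library size only (0.99). Leaving out 1 library gave from 2 to 8 members called (2 to 7 higher, 0 to 1 lower) and from 2 to 9 past the adjusted p alone. Of the further node genes 5 to 14 were called higher. Over all genes, 181 to 1304 were called higher and 181 to 1028 lower, the lowest without control replicate 1. Each such fit holds fewer samples. With both muscle-rich libraries left out, chosen after seeing the data, *Sptbn4* lost its call (2.31, limma-voom adjusted p = 0.0756) and *Nrcam* no longer passed (0.89, limma-voom adjusted p = 0.0518). No paired analysis was possible because the labels give no replicate numbers shared between the groups. The lowest depth stands behind *Sptbn4*, at 13 to 101 counts.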
